A study of Mus musculus with 8 samples.

Results

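The genes that encode amino acid and glutamate transporters were followed in O9-1 cells with and without stimulation by Sonic Hedgehog. This immortalized line was derived from cranial neural crest cells (cNCCs) of the mouse. Members were chosen by gene symbol alone. The rule took symbols of the Slc1, Slc6, Slc7, Slc36, Slc38 and Slc43 families that end in a number, and the heavy chains *Slc3a1* and *Slc3a2*. Of the 22180 genes named on the array, 59 met this rule. After 24 h of attachment, cells were kept in DMEM with 1% FBS, either with vehicle (4 cultures) or with 0.4 μg/mL SHH-N, the active amino-terminal fragment of the ligand (4 cultures), and RNA was collected after 48 h. Each culture was hybridized to its own Affymetrix Mouse Gene 2.0 ST array, and values are the deposited log2 signals, so that a difference of 1 is a doubling. A gene can be covered by more than 1 transcript cluster, a probe group that the array reports as a unit, and the brightest over the 8 arrays then stands for it. All cultures are of the same line, the labels call them biological replicates without saying how they were kept apart, and p-values measure the spread between them. A gene is said to rise or fall where its Benjamini-Hochberg adjusted p from limma, over all 41345 clusters, was under 0.01.

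Amino acid transporters set which amino acids a cell takes up, releases or exchanges. The excitatory amino acid transporters of the Slc1 family drive glutamate and aspartate into the cell with the sodium gradient and are best known for clearing glutamate around neurons. The light chains of the Slc7 family work as pairs with a heavy chain of the Slc3 family and swap an amino acid inside the cell for another outside. The Slc38 family carries small neutral amino acids such as glutamine and alanine with sodium, and Slc36 carriers such as *Slc36a1* couple transport to protons. The Slc6 family includes the carriers of taurine, creatine and several neurotransmitters.

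Of the 59 transporter genes, 5 rose, 7 fell and 47 did not pass the test in SHH-N-treated cNCCs. The called share was 20.3%, against 9.98% of all genes and 6.48% of all clusters. By direction, 4.79% of all genes rose and 5.19% fell (2.97% and 3.51% of clusters). Genes with a mean log2 signal under 7 over the 8 arrays are called dim here. For 31 of the 59 neither treatment mean exceeded 5.76, the highest of the array medians. Of the 20 members with a mean log2 signal of at least 7, 11 were called (55.0%), where 19.0% of all genes this bright were called (8.26% higher and 10.7% lower). This mean is taken over both treatments: *Slc1a1* and *Slc7a7* had a mean of 7 or more only in SHH-N and *Slc7a1* only in vehicle, all 3 were called, and the share is given as a description only. RNA was measured from whole cultures, in which fewer cells of a type and less RNA per cell cannot be told apart. The vehicle and SHH-N ranges were separate for 19 members (32.2%), against 25.1% of all genes, and the 12 called members were among them. The median log2 fold change was -0.02 over the members and 0.01 over all genes. These shares describe the members and are not a test of the families as a set.

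**Figure D1:**
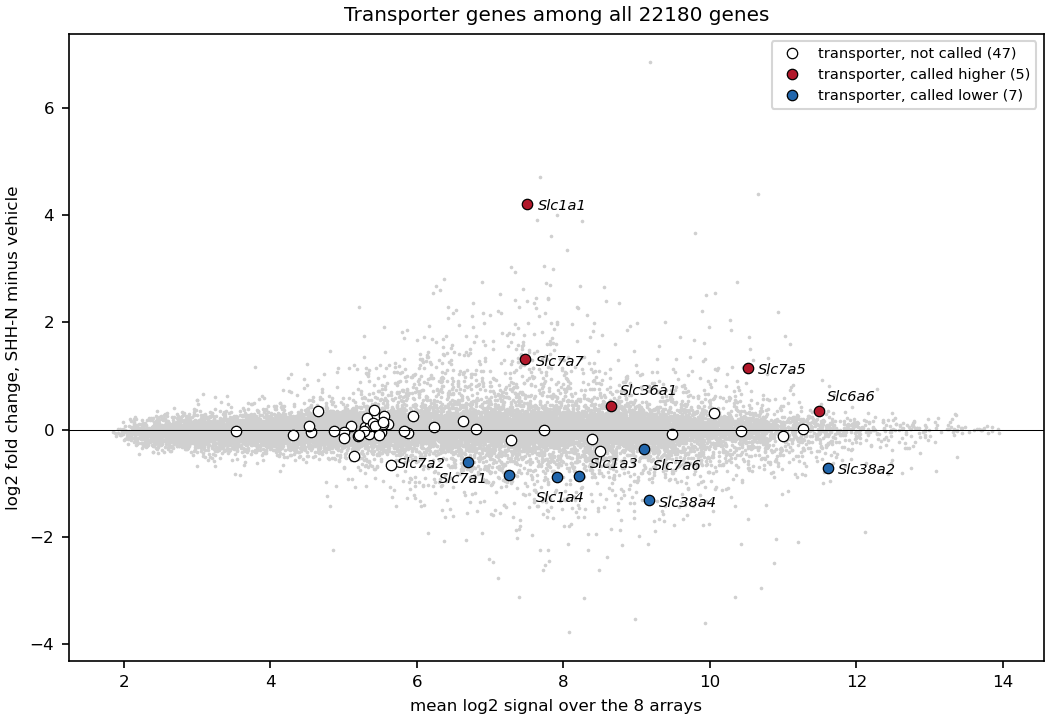
Each point is a gene, with its mean log2 signal over the 8 arrays on the x axis and its log2 fold change (SHH-N minus vehicle) on the y axis. Grey dots are all 22180 genes, and circles are the 59 transporter genes, of which 5 called higher are red, 7 called lower are blue and 47 not called are open. *Slc1a1* lies at 4.21, far above the other transporter genes, and most open circles lie at low signal near 0.

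The arrays showed the response of the pathway itself. *Gli1*, the transcription factor used as a readout of Hedgehog signaling, went from 5.33 ± 0.21 to 10.04 ± 0.11 (SD, n = 4 each), *Ptch1*, the receptor, rose by 4.39 and *Gas1*, a coreceptor, fell by 1.87 on the log2 scale, while *Gapdh* was at -0.04 (adjusted p = 0.722 from limma). Median signals of the arrays were between 5.70 and 5.76, correlations were 0.988 to 0.991 within a treatment and 0.980 to 0.984 between treatments, and no pair of arrays was identical. Of 13 measured markers of cranial neural crest mesenchyme, the regulators *Prrx1* (vehicle mean 12.44), *Tfap2a* (10.93), *Sox9* (10.84) and *Snai2* (10.81) were bright, while *Tfap2b* (4.21) and *Alx1* (4.98) lay below the array medians. Of the 13, 3 rose and 4 fell: *Snai2* was at -1.53, *Tfap2a* at -0.98, *Prrx1* at -0.62 and *Vim* at -0.50, against 1.04 for *Six2*, 0.69 for *Cd44* and 0.32 for *Pdgfra*. The summed log2 signal of this list ran from 14.78 to 14.80 in vehicle and from 14.36 to 14.43 in SHH-N. Over the markers of other cell types, the epithelial *Epcam* (4.46), the endothelial *Pecam1* (5.78), the leukocyte *Ptprc* (4.04), the glial *Sox10* (5.76), the neuronal *Stmn2* (5.51) and the melanocyte gene *Tyr* (4.10) were near or below the array medians in vehicle. *Sox10* was placed on the glial list here, but the study used it as a marker of the cNCC-derived mesenchyme. Its low signal therefore does not speak only of glia. The mean signal was at or below 5.76 for 7 of 9 epithelial, 7 of 10 endothelial, 7 of 9 leukocyte, 5 of 8 glial, 4 of 10 neuron and 8 of 10 melanocyte markers. The brightest of each list in vehicle were *Krt8* (6.42), *Erg* (8.39), *Cd68* (6.69), *Foxd3* (6.74), *Map2* (7.77) and *Mitf* (8.13). Some listed markers moved with the treatment, where 4.79% of all genes rose and 5.19% fell. Those that rose were 1 of 9 epithelial (*Cdh1*, 1.77), 2 of 10 endothelial (*Cdh5*, 0.67, and *Erg*, 0.93) and 1 of 8 glial markers (*S100b*, 1.20). Those that fell were 1 of 8 glial (*Mbp*, -0.47), 1 of 10 neuronal (*Map2*, -0.76) and 2 of 10 melanocyte markers (*Mlana*, -1.63, and *Mitf*, -0.52). Summed over their lists, the log2 signal ran from 8.72 to 8.82 in vehicle and from 9.28 to 9.39 in SHH-N for the epithelial markers, and from 9.33 to 9.50 and from 9.95 to 10.07 for the endothelial ones. It ran from 8.59 to 8.70 and from 8.69 to 8.92 for the glial markers, and from 9.66 to 9.78 and from 9.14 to 9.19 for the melanocyte markers. For neuron markers the sums were 9.53 to 9.55 in vehicle and 9.37 to 9.57 in SHH-N, and for the leukocyte markers, of which none of 9 was called, 8.72 to 8.84 and 8.72 to 8.79. The part of these markers in the transporter values was not tested.

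The glutamate transporter *Slc1a1*, which also takes up cysteine, had by far the largest change of the 59 genes. Its log2 signal was 5.54, 5.64, 5.0 and 5.42 in the vehicle cultures and 9.68, 9.53, 9.81 and 9.43 in the SHH-N cultures. All 4 vehicle values lay below the lowest array median, and all 4 SHH-N values were high, with nearly 4 log2 units between the groups. The log2 fold change was 4.21 (standard error 0.15, 95% interval 3.88 to 4.55, adjusted p = 9.36e-07 from limma), an 18.5-fold difference and the 4th highest of all 22180 genes. No background measure comes with the deposited values, and where the vehicle signal is background this fold is a lower bound. For *Slc1a1*, as for each gene whose treatments do not overlap, an exact permutation test over the 8 cultures gave a two-sided p of 0.0286, the smallest that 4 against 4 allows.

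The stretch of 250 bases directly before the annotated start of *Slc1a1* is shown because it is the promoter of the transporter gene with the largest response. It lies on the plus strand of chr19:28834885-28835134 (RefSeq, GRCm38.p6), and capitals mark each CG dinucleotide:
*Slc1a1*: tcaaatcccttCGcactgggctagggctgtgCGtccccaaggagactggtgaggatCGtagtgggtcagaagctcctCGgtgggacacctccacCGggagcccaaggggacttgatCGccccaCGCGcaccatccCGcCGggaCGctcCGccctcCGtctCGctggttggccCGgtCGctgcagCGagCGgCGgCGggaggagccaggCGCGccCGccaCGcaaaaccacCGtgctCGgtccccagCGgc
The stretch held 27 CG dinucleotides and was 70.4% G and C, where the medians over the same stretch of all 32851 promoters in the table were 6 and 52.4%. The consensus of Gli factors, GACCACCCA on either strand, did not occur in it. It occurred in none of the 61 promoter windows (from 250 bases before to 50 after a start) of the 42 transporter genes that the table holds, and in 0.253% of all promoter windows.

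The other Slc1 genes did not follow *Slc1a1*. *Slc1a3*, the glutamate and aspartate transporter known from glia, fell: its signal lay between 8.58 and 8.72 in vehicle and between 7.59 and 7.95 in SHH-N, so that its log2 fold change was -0.87 ± 0.08 (standard error) with an adjusted p of 2.22e-04 from limma. The remaining glutamate carriers *Slc1a2*, *Slc1a6* and *Slc1a7* were dim, with all their values between 5.08 and 6.08, and log2 fold changes between -0.06 and 0.04. *Slc1a4*, an exchanger of alanine, serine and cysteine, had a mean of 8.36 ± 0.05 in vehicle and 7.48 ± 0.19 in SHH-N (SD, n = 4 each), with a difference of -0.88 on the log2 scale (adjusted p = 4.90e-04 from limma). SHH-N replicate 3 was the lowest culture for *Slc1a4*, at 7.19, with the other SHH-N values between 7.54 and 7.61. Its relative *Slc1a5*, a glutamine exchanger, did not pass the test, at -0.40 (95% interval -0.65 to -0.16, adjusted p = 0.0443 from limma), although its treatments did not overlap, and a dimmer cluster of the gene was at -0.11.

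**Figure D2:**
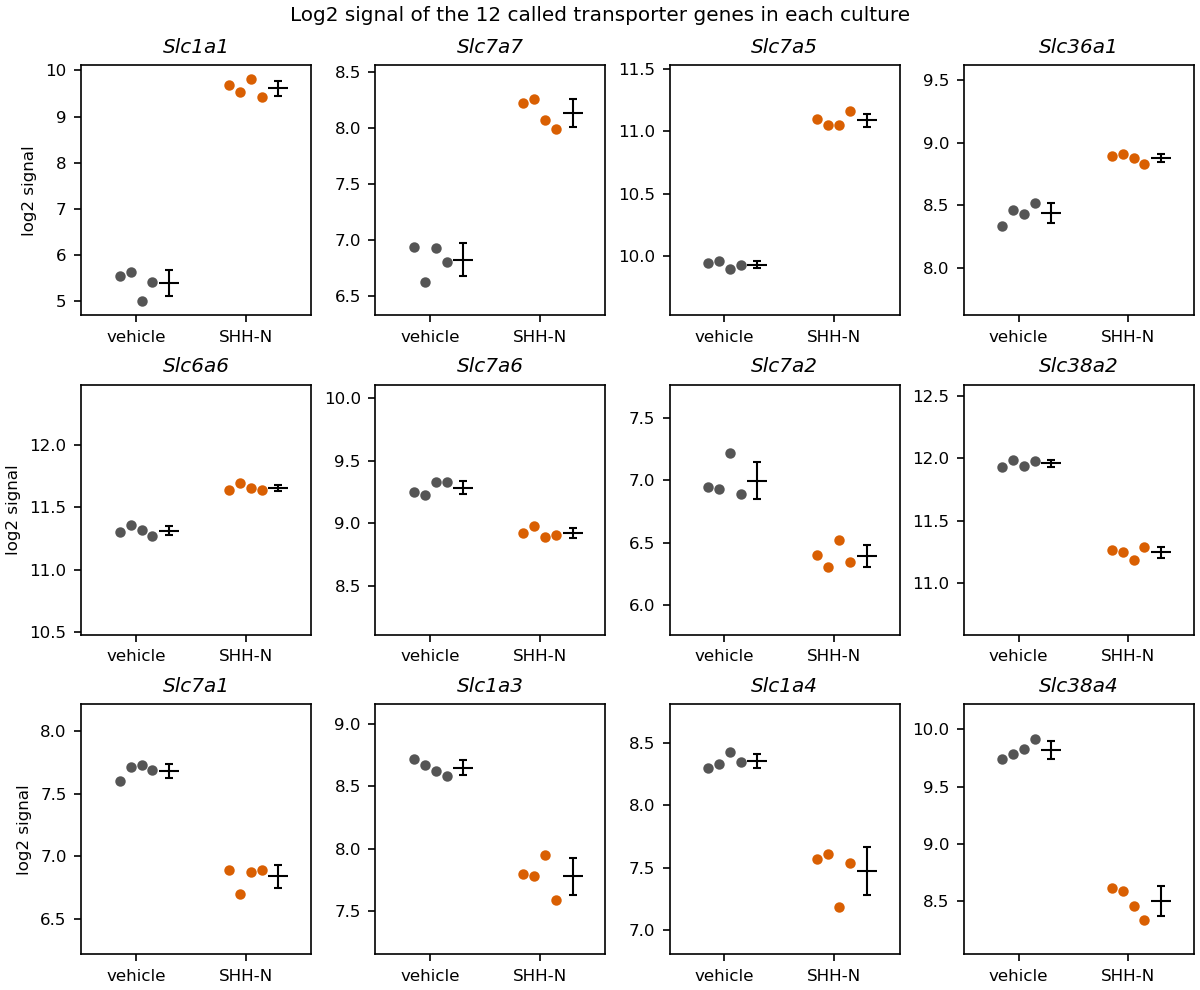
Log2 signal (y axis, a separate range for each gene) of the 12 called transporter genes in the 4 vehicle cultures (grey) and the 4 SHH-N cultures (orange), ordered from the highest to the lowest log2 fold change, with the mean and SD of each treatment in black. The treatments do not overlap in any panel, and the gap is widest for *Slc1a1*.

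The Slc7 light chains moved in both directions, while their shared heavy chain stayed within a narrow range. *Slc7a5*, the large neutral amino acid transporter that brings in leucine and other essential amino acids, had signals of 9.95, 9.96, 9.90 and 9.93 in vehicle and 11.10, 11.05, 11.05 and 11.16 in SHH-N. The cultures of each treatment lay close together, and the log2 fold change was 1.15 (standard error 0.05, 95% interval 1.03 to 1.27, adjusted p = 3.61e-06 from limma), or 2.22-fold. *Slc7a7*, a system y+L light chain that exchanges cationic for neutral amino acids, had signals of 6.94, 6.63, 6.93 and 6.80 in vehicle and 8.22, 8.26, 8.07 and 7.99 in SHH-N. All SHH-N values were more than 1 log2 unit above the highest vehicle value, and the log2 fold change was 1.31 (standard error 0.09, 95% interval 1.10 to 1.52, adjusted p = 4.22e-05 from limma). *Slc7a6*, the other system y+L light chain, fell slightly, with means of 9.29 ± 0.06 and 8.93 ± 0.04 (SD, n = 4 each) and a difference of -0.36 (adjusted p = 0.00310 from limma). The call of *Slc7a6* was lost without vehicle replicate 3 or 4 or SHH-N replicate 1 or 3, where adjusted p from limma was 0.0128, 0.0136, 0.0124 and 0.0111.

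*Slc3a2*, the CD98 heavy chain with which *Slc7a5*, *Slc7a6* and *Slc7a7* pair at the cell surface, was between 11.06 and 11.09 in vehicle and had a mean of 10.94 ± 0.06 (SD, n = 4) in SHH-N. Every SHH-N culture lay below every vehicle culture, yet limma gave a difference of -0.12 ± 0.05 (standard error) with an adjusted p of 0.206, which did not pass the test. *Slc3a1*, the heavy chain known from kidney and intestine, had values between 5.06 and 5.48 in both treatments. Of the 7 light chains not yet described, none was called and all values lay between 3.35 and 6.22. Among these, *Slc7a11*, the light chain of the cystine and glutamate exchanger, was at -0.49 (adjusted p = 0.0602 from limma) from a dim vehicle mean of 5.38, *Slc7a8*, a second large neutral amino acid transporter, was at 0.36 (adjusted p = 0.198), and *Slc7a10*, which exchanges small neutral amino acids, at 0.25 (adjusted p = 0.0524). A dimmer cluster of *Slc7a11* was at 0.07.

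Of the 5 genes in the cationic amino acid transporter branch of the Slc7 family, which work without a heavy chain, 2 fell and none rose. *Slc7a1*, the widely expressed carrier of arginine and lysine, lay between 7.60 and 7.73 in vehicle and between 6.70 and 6.89 in SHH-N, a difference of -0.84 ± 0.07 (standard error) on the log2 scale with an adjusted p of 6.95e-05 from limma. SHH-N replicate 2 was the lowest of its SHH-N cultures, and the other values there were between 6.87 and 6.89. *Slc7a2*, an inducible carrier of the same substrates, had means of 7.0 ± 0.15 and 6.39 ± 0.09 (SD, n = 4 each), at -0.60 (adjusted p = 0.00241 from limma). Without SHH-N replicate 2 the adjusted p of *Slc7a2* was 0.0101 and the call was lost. *Slc7a3*, *Slc7a4* and *Slc7a14* were dim, with values from 4.71 to 5.90 and log2 fold changes from -0.02 to 0.15.

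Of the 11 members of the Slc38 family, which carry glutamine, alanine and other neutral amino acids, 2 fell, none rose and 9 did not pass the test. *Slc38a4*, a paternally expressed imprinted gene in the mouse that is prominent in placenta and liver, had signals of 9.74, 9.79, 9.83 and 9.92 in vehicle and 8.62, 8.59, 8.46 and 8.34 in SHH-N. Every SHH-N culture was more than 1 log2 unit below every vehicle culture. Its log2 fold change of -1.32 (standard error 0.08, 95% interval -1.50 to -1.14, adjusted p = 1.63e-05 from limma) was the lowest of the 59 genes, a 2.49-fold difference. *Slc38a2*, a carrier whose RNA is known to increase when amino acids are scarce, lay between 11.93 and 11.99 in vehicle and between 11.19 and 11.29 in SHH-N, at -0.71 (standard error 0.05, adjusted p = 5.02e-05 from limma).

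*Slc38a1*, *Slc38a2* and *Slc38a4* are neighbouring protein-coding genes, in this order on mouse chromosome 15 in the RefSeq annotation, and their changes differed in sign. *Slc38a1*, a glutamine transporter, was between 9.79 and 9.98 in vehicle and between 10.15 and 10.27 in SHH-N. These values did not overlap either, but the log2 fold change of 0.30 (95% interval 0.16 to 0.44, adjusted p = 0.0142 from limma) just missed the threshold. It passed in 4 of 16 alternative settings, with an adjusted p as low as 0.00212. The lysosomal members *Slc38a7*, which exports glutamine, and *Slc38a9*, a sensor of arginine, were at -0.08 (95% interval -0.21 to 0.06) and -0.01 (95% interval -0.17 to 0.16). *Slc38a6* was at -0.20 (adjusted p = 0.100) and *Slc38a10* at -0.17 (adjusted p = 0.243). The other 4 Slc38 genes were dim, between 4.75 and 6.38, with log2 fold changes from -0.11 to 0.04.

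**Figure D3:**
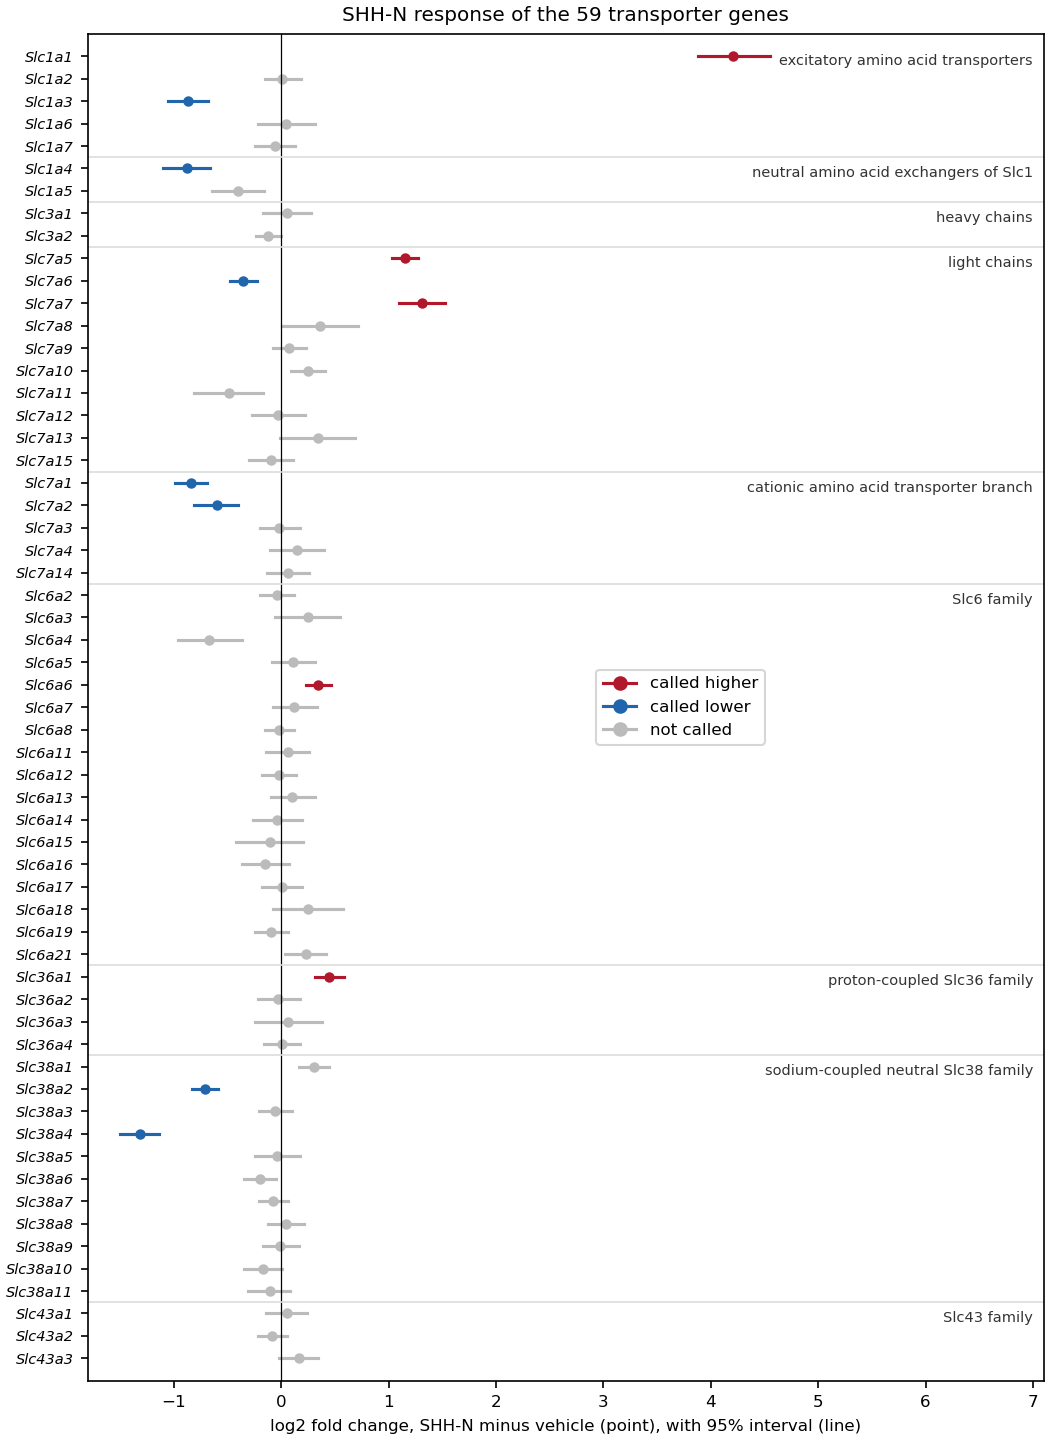
Log2 fold change (x axis, SHH-N minus vehicle) with its 95% interval from limma for each of the 59 transporter genes, grouped by family from top to bottom. Red genes were called higher, blue genes lower and grey genes were not called. Calls in both directions occur among the excitatory amino acid transporters and the light chains, and most Slc6 genes lie near 0.

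The Slc6 family, the largest of these with 17 members under the rule, had 1 call. *Slc6a6*, the taurine transporter, had means of 11.31 ± 0.04 in vehicle and 11.65 ± 0.03 in SHH-N (SD, n = 4 each), and limma put the log2 difference at 0.34 ± 0.05 (standard error) with an adjusted p of 0.00264. The call of *Slc6a6* was lost without vehicle replicate 1, 3 or 4 or SHH-N replicate 2, where adjusted p was 0.0110, 0.0103, 0.0121 and 0.0114. *Slc6a8*, the creatine transporter, had means of 10.43 and 10.41, with a log2 fold change of -0.02 and a 95% interval from -0.15 to 0.12. *Slc6a4*, the serotonin transporter, lay between 5.87 and 6.07 in vehicle and between 5.13 and 5.70 in SHH-N, near the array medians. Its log2 fold change of -0.67 missed the threshold (adjusted p = 0.0116 from limma) and passed without SHH-N replicate 2, at -0.80 (adjusted p = 7.32e-04). With *Slc6a4*, 15 of the Slc6 members had a mean signal under 7, among them the carriers of dopamine, noradrenaline, glycine and proline, and of these *Slc6a4* alone had treatments that did not overlap. The cluster of the glycine carrier *Slc6a9* also carries another gene's symbol and was not counted. *Slc6a20a* and *Slc6a20b*, whose symbols end in a letter, were placed with the other amino acid carriers below, and neither was called.

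In the Slc36 family, *Slc36a1* carries glycine, proline and alanine out of lysosomes and across the cell membrane. Its signal rose from 8.43 ± 0.08 to 8.88 ± 0.03 (SD, n = 4 each). On the log2 scale this was a rise of 0.44 ± 0.06 (standard error), with an adjusted p of 0.00162 from limma. *Slc36a4* was at 0.01 (95% interval -0.16 to 0.17), and its dimmer cluster at -0.17 (adjusted p = 0.228). *Slc36a2* and *Slc36a3*, which lie beside *Slc36a1* on chromosome 11, were dim, with values from 4.74 to 6.02 and log2 fold changes of -0.03 and 0.06. None of the 3 Slc43 genes was called, a family that includes system L carriers of large neutral amino acids, and their values lay between 5.13 and 6.83.

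Short motifs were looked up in the RefSeq promoter windows of 42 of the 59 transporter genes. *Slc7a5* was among those without a window and was not searched. Among the motifs were C/EBP-ATF elements, which factors of the amino acid stress response bind. In its general form, TGATGNAAN on either strand, the C/EBP-ATF element occurred in 5 of the 61 windows, those of *Slc1a4*, *Slc7a7*, *Slc7a11* and *Slc6a21*, and in 3.95% of all 32851 windows. This form was added after the sequences had been seen, and the specific letters TGATGCAAT and TGATGAAAT occurred in none of the 61 windows. The matches are shown with up to 10 bases on each side, in capitals, read along the strand of the gene (RefSeq, GRCm38.p6):
*Slc1a4*, minus strand, chr11:20332700-20332728: tgcctcctgcGTTGCATCAtctccagcct
*Slc7a7*, minus strand, chr14:54418067-54418095: cgcttgggctTGATGAAAGgttcactggg
*Slc7a7*, minus strand, chr14:54417927-54417955: acctagaagcTGATGCAACagcttccccg
*Slc7a11*, minus strand, chr3:50443661-50443689: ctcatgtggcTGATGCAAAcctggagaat
*Slc7a11*, minus strand, chr3:50443643-50443671: acctggagaaTTTGCATCAtcatgcagcc
*Slc6a21*, plus strand, chr7:45282834-45282862: agaggtgagaATTACATCAagtgggcctc
The matches of *Slc7a11* begin 66 and 48 bases before its start and that of *Slc1a4* begins 5 bases before. Those of *Slc7a7* begin 141 and 1 bases before a start, and the latter also falls in a further window of the gene. *Slc1a4* fell, *Slc7a7* rose, and *Slc7a11* and *Slc6a21* did not pass the test. A part of the element in these values was not tested. The cAMP response element TGACGTCA occurred in 1 window, that of *Slc38a6* (1.79% of all windows), and TGACTCAGC, the core of an antioxidant response element, in none (0.454% of all windows). A match is a description of letters and not of a bound site.

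Among the genes listed here for the amino acid stress response, not all of them specific to amino acid shortage, falls outnumbered rises in SHH-N-treated cNCCs. Of 12 genes of the amino acid stress response, 1 rose, 7 fell and 4 did not pass the test, with a median log2 fold change of -0.44, against 0.01 over all genes. By direction, 4.79% of all genes rose and 5.19% fell (8.26% and 10.7% of those with a mean signal of at least 7). *Eif2ak4*, the kinase that responds to uncharged tRNA, was at -0.66 (adjusted p = 8.45e-05 from limma), *Atf5*, a transcription factor of the response, at -0.70 (adjusted p = 8.65e-05), and *Nupr1*, a stress-induced chromatin protein, at -0.78 (adjusted p = 0.00132). *Atf4*, the central factor of this response, fell from 8.54 ± 0.09 to 8.05 ± 0.07 (SD, n = 4 each), at -0.49 (adjusted p = 0.00167 from limma), and was named after its values had been seen. *Ddit4*, an inhibitor of mTORC1 signaling, rose by 1.14 (adjusted p = 4.80e-05 from limma). When a culture was left out, between 5 and 7 of the genes fell. The 18 measured cytosolic aminoacyl-tRNA synthetases, which load amino acids onto tRNA, all had a mean signal of at least 7. Among all genes this bright, 8.26% rose and 10.7% fell. Of the synthetases none rose and 4 fell, with a median of -0.15. They were the enzymes for isoleucine (*Iars*, -0.63), cysteine (*Cars*, -0.61), glycine (*Gars*, -0.40) and glutamate with proline (*Eprs*, -0.36). With any of the 8 cultures left out, 2 or 3 of them were called: *Gars* missed in each case, with adjusted p from limma up to 0.0318, and *Eprs* without any vehicle replicate but 4 or any SHH-N replicate but 4, with adjusted p up to 0.0136.

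**Figure D4:**
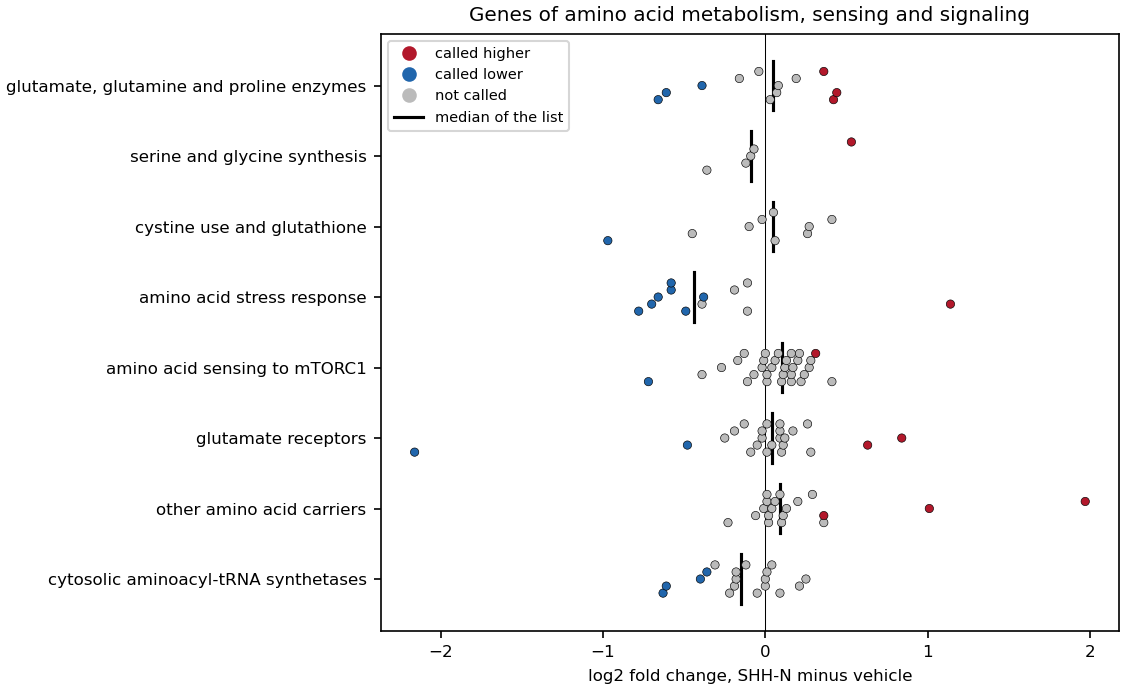
Log2 fold change (x axis, SHH-N minus vehicle) of the genes of 8 lists related to amino acid use, 1 list per row, with called genes in red (higher) or blue (lower), others in grey, and the median of each list as a black bar. The stress response list has its median at -0.44, and the other medians lie between -0.15 and 0.10.

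Enzymes of amino acid use changed in both directions. Over all genes, 4.79% rose and 5.19% fell (8.26% and 10.7% of those with a mean signal of at least 7). Of 12 enzymes of glutamate, glutamine and proline, 3 rose and 3 fell (median 0.05). *Glul*, which makes glutamine from glutamate, was at 0.44 (adjusted p = 0.00222 from limma, with a dimmer cluster at 0.33, adjusted p = 0.0653), and the mitochondrial alanine transaminase *Gpt2* at 0.42 (adjusted p = 9.61e-04), while *Asns*, which makes asparagine, was at -0.66 (adjusted p = 1.10e-04) and the ornithine transaminase *Oat* at -0.61 (adjusted p = 2.50e-04). In serine and glycine synthesis 1 of 5 genes was called, *Shmt1*, at 0.53 (adjusted p = 0.00292 from limma). The call of *Shmt1* was lost without vehicle replicate 1, 2 or 4 or SHH-N replicate 3 (adjusted p from 0.0105 to 0.0125). In cystine use and glutathione 1 of 9 was called, *Chac1*, which degrades glutathione, at -0.97 (adjusted p = 0.00209 from limma). The methods' test without moderation gave *Chac1* an adjusted p of 0.0106 and called 1 other gene of this list, higher.

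Carriers outside the symbol rule included the largest rise after that of *Slc1a1*. Of 19 other amino acid carriers, 3 rose and none fell (median 0.09), where 4.79% of all genes rose and 5.19% fell. *Slc16a10*, a transporter of the aromatic amino acids, had means of 7.13 ± 0.04 and 9.11 ± 0.05 (SD, n = 4 each), a rise of 1.97 on the log2 scale (adjusted p = 3.50e-07 from limma). *Slc25a13*, the mitochondrial exchanger of aspartate and glutamate, was at 1.01 (adjusted p = 2.64e-05), and *Ctns*, the lysosomal exporter of cystine, at 0.36 (adjusted p = 0.00564). *Ctns* missed the threshold without vehicle replicate 1, 3 or 4 or SHH-N replicate 1, 2 or 3 (adjusted p from 0.0181 to 0.0216). Of 31 genes that link amino acids to mTORC1, the growth-promoting kinase complex, 1 rose and 1 fell (median 0.10). Of these 31, 2 had a mean signal at or below 5.76. Among all genes with a mean signal of at least 7, 8.26% rose and 10.7% fell. *Castor2*, a member of the arginine sensor family, was at -0.72 (adjusted p = 5.71e-05 from limma), and *Lamtor1*, which anchors the complex to lysosomes, at 0.31 (adjusted p = 0.00854), a call that was lost without any 1 of the 8 cultures (adjusted p from 0.0107 to 0.0317).

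Glutamate receptors, the targets of the glutamate that the Slc1 genes clear, were mostly dim. Of 23 measured receptor genes, 15 had a mean signal at or below 5.76, 2 rose, 2 fell and 19 did not pass the test (median 0.04). Over all genes, 4.79% rose and 5.19% fell. The AMPA receptor subunit *Gria1* had means of 9.88 ± 0.05 in vehicle and 7.72 ± 0.07 in SHH-N (SD, n = 4 each), a difference of -2.16 (adjusted p = 3.47e-07 from limma). The related subunit *Gria3* was at -0.48 (adjusted p = 0.00408), and its call was lost without vehicle replicate 1 or 2 or SHH-N replicate 1, 2 or 3 (adjusted p from 0.0121 to 0.0170). The metabotropic receptor *Grm7* was at 0.63 (adjusted p = 1.59e-04), with a dimmer cluster at 0.13 (adjusted p = 0.245). The NMDA receptor subunit *Grin2a* was at 0.84 (adjusted p = 0.00211), from a vehicle mean of 4.99 that lies below the array medians.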

How the data were processed

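The authors scanned the arrays with GCOS software and derived gene signals in Expression Console. They tested differences in Transcriptome Analysis Console 2.0. The deposited log2 values (41345 transcript clusters, 8 arrays) were already comparable between arrays. For the algorithm and genome build, the sources used here give none. The number of arrays limits the precision.

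SHH-N minus vehicle was fitted for every cluster in limma 3.58.1 (lmFit and eBayes, default settings, no filter, no block; R 4.3.3). Calls required an adjusted p (Benjamini-Hochberg) under 0.01, the threshold of the methods. Symbols came from the array annotation, and clusters with several symbols were left unnamed. Transporter genes were taken by symbol. Every called member is named, with all values where the log2 change is at least 1, and also every member with a mean signal of at least 7. Of each of the 8 lists on amino acid use, up to 4 called genes are named, and *Atf4* in addition. Members and lists were chosen with earlier results of these data known, and other genes of these families were named after their values were seen. The fold changes and p-values in the supplement of the study were not used. Promoters came from RefSeq (GRCm38.p6). The fit was tested on simulated data. Figures were drawn with matplotlib 3.10.9. Alternatives were the replicate number as a block, each array left out, other limma settings and an unmoderated t-test in place of the console's test. Other scalings, filters and thresholds, and the second-brightest cluster, were also used.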

Additional observations from a re-analysis of the deposited data

Results flagged for a closer look

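In 6 of the 96 groups checked, each a named gene in 1 treatment, 1 culture lay apart from the other 3, where chance flags about 1 in 20. *Slc1a4* in SHH-N had SHH-N replicate 3 at 7.19, below the other 3 at 7.54 to 7.61. *Slc7a1* in SHH-N had SHH-N replicate 2 at 6.70, below 6.87 to 6.89. *Slc3a2* in vehicle had vehicle replicate 4 at 11.09, above the other 3 at 11.06. *Grm7* in vehicle had replicate 3 at 7.62, above 7.49 to 7.51. *Cars* in vehicle had replicate 1 at 7.95, below 8.17 to 8.20, and *Gars* in SHH-N had replicate 4 at 9.40, below 9.62 to 9.67. The calls of *Slc1a4*, *Slc7a1*, *Grm7* and *Cars* held with any 1 culture left out.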

How the results depend on the processing

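Blocking on replicate number turned the counts of 5 transporter genes that rose and 7 that fell into 3 and 5. Deviations of same-numbered arrays from their treatment means correlated at -0.074 to 0.014, and those of differently numbered arrays at -0.168 to 0.135. The labels do not say whether the numbers mark pairs of cultures, and so few arrays cannot settle it. With a fold change of at least 1.5 required, 3 rose and 6 fell. With a culture left out, between 4 and 5 rose and between 6 and 7 fell. The settings with all 8 cultures and no block gave 5 or 6 that rose and 7 to 9 that fell, the fold requirement apart. With the block, *Slc1a4* (adjusted p = 0.0105), *Slc36a1* (0.0251), *Slc6a6* (0.0344) and *Slc7a6* (0.0426) missed the threshold from limma. For 7 of the 12 called members every one of the 16 alternatives kept the direction and the call. These were *Slc1a1*, *Slc1a3*, *Slc7a1*, *Slc7a5*, *Slc7a7*, *Slc38a2* and *Slc38a4*, and no called member changed sign. Of the 24 called genes named from the lists, 11 kept their call throughout and none changed sign. With the block, *Atf4* (adjusted p = 0.0281 from limma), *Glul* (0.0254), *Chac1* (0.0219), *Gpt2* (0.0193), *Grin2a* (0.0140), *Shmt1* (0.0127) and *Cars* (0.0113) missed the threshold. *Lamtor1* (0.0625), *Ctns* (0.0421), *Gria3* (0.0417), *Gars* (0.0412) and *Eprs* (0.0411) missed it as well. The block left 4 genes of the stress response and 1 synthetase that fell. Of the glutamate, glutamine and proline enzymes, none rose and 2 fell, both with the block and under the 1.5-fold limit. Median centring and quantile normalization shifted the median of all clusters by 0.02 and 0.03. The filter on dim clusters left 27 members and could not be run for *Slc6a4*. Signal over background could not be assessed, which limits what can be said of the 31 members with both means at or below 5.76.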
